A study of Mus musculus with 12 samples.

Results

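Described here are 50 genes of the lysosome and of the vacuolar proton pump in retina and in striatum, compared between R6/1 and wild-type (wt) mice. They are 28 listed symbols for lysosomal enzymes, membrane proteins and their transcription factor Tfeb, and every protein-coding gene whose symbol starts with Atp6v or Atp6ap and that has a row in the deposited table, which gave 22 more. The table lists 17579 genes. Cathepsins were not taken into the set, and Atp6v0d2, Atp6v1e2, Atp6v1fnb and Atp6v1g3 were not analysed here. R6/1 mice, a single transgenic line used as a model of Huntington's disease, carry the human huntingtin promoter and exon 1 with a lengthened CAG tract, and wt mice lack it. All mice were males on the C57Bl/6 background aged 13 to 15 weeks and were untreated. Each of the 4 groups, retina and striatum of either genotype, had 3 libraries, and each library was a pool of 3 to 4 mice, so SDs and p-values below measure the spread between pools and not between mice. Retina and striatum came from the same mice.

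Lysosomes break down proteins, glycans, lipids and glycogen with soluble hydrolases that work at acid pH. The acid is made by the V-ATPase, in which the cytosolic V1 sector splits ATP and the membrane V0 sector carries protons into the lumen, also in synaptic vesicles and other compartments. Genes of the lysosome often hold a short palindrome near their start, the CLEAR element, to which the factor TFEB and its relatives bind. In the retina, phagocytic cells and the pigment epithelium digest shed or dying photoreceptor material in lysosomes, and loss of single lysosomal enzymes leads to storage disease of brain and eye.

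Library totals ran from 14070445 to 22432431 counts. The 50 genes took 0.468% to 0.484% of the counts in wt retina and 0.553% to 0.573% in R6/1 retina, and 0.624% to 0.636% in wt striatum and 0.691% to 0.706% in R6/1 striatum. Scaled by TMM (a factor per library that sets the bulk of genes level), their summed CPM (counts relative to the library, scaled to a common depth) were 4816 to 5074 in wt retina and 5102 to 5394 in R6/1 retina, against 6502 to 6779 in wt striatum and 6800 to 6897 in R6/1 striatum. The tissue labels matched their markers: 18 rod and cone genes summed to between 64879 and 73193 CPM in wt retina and to between 7.17 and 9.95 in wt striatum, and 15 medium spiny neuron genes summed to between 6265 and 8711 CPM in wt striatum and to between 1042 and 1116 in wt retina.

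Of the 50 genes, 42 had a promoter in the RefSeq table of GRCm38.p6, which spans 250 bases before to 50 after the start site. A gene was counted if any of its promoters held the word. The palindrome TCACGTGA, the strictest form of the CLEAR element searched, stood in 6 of the 42 (14.3%), against 304 of the 27025 genes with a promoter there, expressed or not (1.12%). Its core CACGTG, which lies inside the longer word, stood in 14 (33.3%, against 8.09% of those genes), and TCACGTG on either strand stood in the same number, 14 (33.3%, against 4.29%). Both palindromes read alike on both strands. A match to these letters is a description of the window and does not show that a factor binds it. The 6 stretches with the longer palindrome (in capitals) are shown 5′ to 3′ as the members with the strictest match, and their genes' values stand with the retinal results.
Atp6v0d1, chr8:105566015-105566114, minus strand: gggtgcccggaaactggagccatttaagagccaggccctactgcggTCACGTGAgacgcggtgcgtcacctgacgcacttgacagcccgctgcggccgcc
Atp6v0e, chr17:26676352-26676445, plus strand: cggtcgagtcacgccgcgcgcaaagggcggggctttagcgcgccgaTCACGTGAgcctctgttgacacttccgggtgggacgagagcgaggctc
Atp6v1a, chr16:44139338-44139437, minus strand: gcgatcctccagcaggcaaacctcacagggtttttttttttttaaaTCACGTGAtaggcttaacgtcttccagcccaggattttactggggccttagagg
Cln3, chr7:126583305-126583431, minus strand: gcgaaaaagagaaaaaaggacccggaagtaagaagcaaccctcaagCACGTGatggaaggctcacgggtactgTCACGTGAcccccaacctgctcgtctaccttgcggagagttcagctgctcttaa
Gla, chrX:134601147-134601255, minus strand: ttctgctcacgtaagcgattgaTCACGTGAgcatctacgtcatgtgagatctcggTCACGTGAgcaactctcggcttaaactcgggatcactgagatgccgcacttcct
Mcoln1, chr8:3500402-3500526, plus strand: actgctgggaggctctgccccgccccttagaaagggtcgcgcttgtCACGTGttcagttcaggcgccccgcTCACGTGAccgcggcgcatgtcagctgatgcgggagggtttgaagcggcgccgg

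Cln3 and Mcoln1 held the core as a second, separate match, and Gla held the longer palindrome at 2 places. The next 3 windows held only the core, in capitals. Lgmn and Gaa are shown because both genes were higher in the R6/1 retina, and Lamp1 because it carried 4 copies, more than any other of the 42.
Lgmn, chr12:102439090-102439187, minus strand: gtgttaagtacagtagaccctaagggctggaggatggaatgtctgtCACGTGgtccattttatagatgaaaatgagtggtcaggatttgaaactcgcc
Gaa, chr11:119267777-119267874, plus strand: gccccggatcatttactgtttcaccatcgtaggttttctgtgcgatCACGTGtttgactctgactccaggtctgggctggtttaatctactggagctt
Lamp1, chr8:13159054-13159197, plus strand: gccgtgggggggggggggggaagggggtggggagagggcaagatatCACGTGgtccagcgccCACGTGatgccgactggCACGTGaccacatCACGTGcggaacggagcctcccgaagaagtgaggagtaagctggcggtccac

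In the R6/1 retina, 14 of the 49 genes tested rose and 1 fell (edgeR, adjusted p under 0.05 over all genes). Of all 16582 genes tested, 9.58% rose and 12.7% fell, while 28.6% of the lysosomal and V-ATPase genes rose and 2.04% fell. The median log2 fold change was 0.13 over the set and 0.01 over all genes. The gains were small: Gusb (0.81) and Cd63 (0.68) moved most, and the other 12 lay between 0.17 and 0.43. Of the 28 listed lysosomal genes 11 rose and 0 fell (15 had an unadjusted p under 0.05), and of the 21 V-ATPase genes tested 3 rose and 1 fell. DESeq2 gave the same counts, 14 and 1. In bulk tissue, fewer cells of a type and less RNA per cell cannot be told apart, and the same holds for more.

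**Figure D1:**
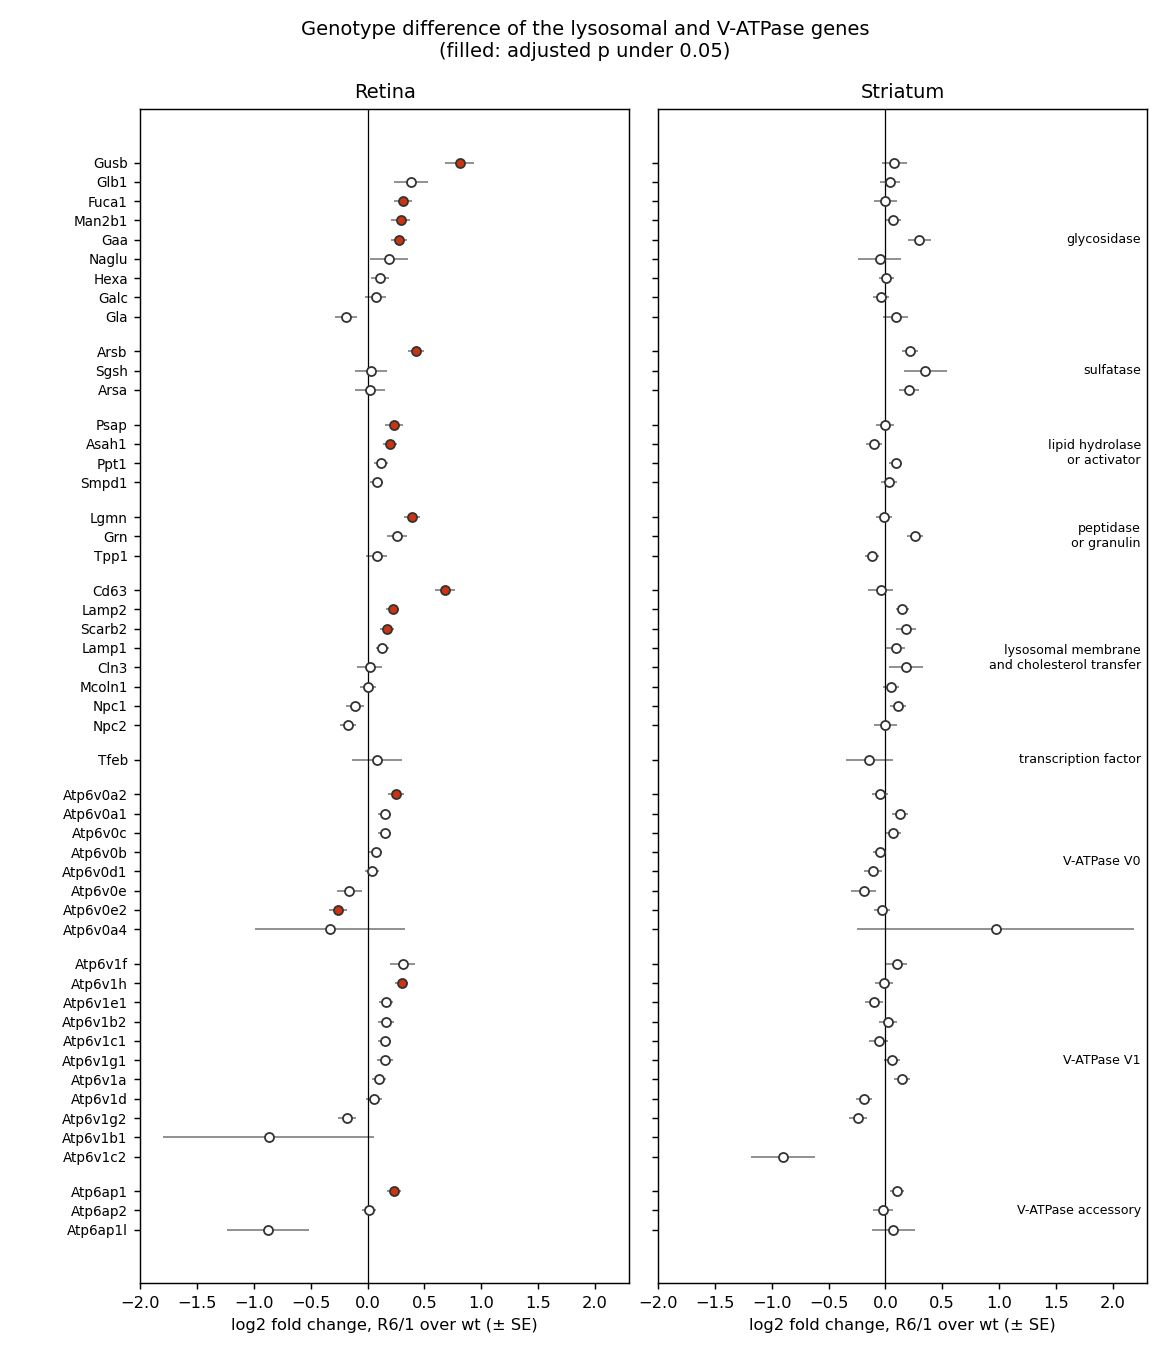
Log2 fold change of R6/1 over wt (x axis, ± SE) for each gene (y axis, grouped by role, with the role named at the right) in the retina (left) and the striatum (right). Filled points passed an adjusted p under 0.05, which 15 genes did in the retina (14 above 0) and 0 in the striatum. Atp6v1c2 in the retina and Atp6v1b1 in the striatum are listed at 0 in every library and have no point.

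Among the 9 glycosidases, which cut sugars from glycans, glycolipids and glycogen, 4 rose and 0 fell in the R6/1 retina. Values in parentheses with a ± are log2 fold changes of R6/1 over wt with their SE. Gusb, the β-glucuronidase of glycosaminoglycan breakdown, was at 6.23, 5.27 and 6.57 CPM in wt retina and at 11, 9.88 and 10.1 in R6/1 retina (72 to 117 and 183 to 201 counts). The lowest R6/1 pool was thus well above the highest wt pool, and the log2 fold change was 0.81 ± 0.13 (SE, adjusted p = 0.000272). Gaa, the acid α-glucosidase of glycogen, was at 53, 48.9 and 55.4 CPM in wt and at 58.5, 62.3 and 66.8 in R6/1, which do not overlap (0.28 ± 0.07, adjusted p = 0.00843). Fuca1, an α-fucosidase, was at 24.8, 22.9 and 27.8 CPM in wt and at a narrow 30.9, 30.3 and 30.7 in R6/1, all above the wt pools (0.31 ± 0.08, adjusted p = 0.0138). Man2b1, the α-mannosidase, was at 29.5, 27.4 and 26 CPM in wt and at 32.4, 32 and 34.7 in R6/1, again with no overlap (0.29 ± 0.08, adjusted p = 0.0116). The other 5 did not pass: Glb1, the β-galactosidase, had a log2 fold change of 0.38 ± 0.15 on 77 to 181 counts (adjusted p = 0.0724), Naglu of heparan sulfate breakdown 0.19, Hexa, the hexosaminidase α chain, 0.11, Galc, the galactosylceramidase, 0.07, and Gla, the α-galactosidase, −0.19 (adjusted p = 0.166).

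Of the 3 sulfatases, Arsb rose. Arsb removes sulfate from dermatan and chondroitin sulfate, and stood at 40.8, 38 and 41.8 CPM in wt retina and at 50.4, 53.4 and 55.6 in R6/1 retina. No R6/1 pool came near the wt range, and the log2 fold change was 0.43 ± 0.07 (adjusted p = 0.000204). Sgsh, which acts on heparan sulfate, and Arsa, which acts on sulfatide, had log2 fold changes of 0.03 and 0.02 with SEs of 0.14 and 0.13.

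Of the 4 genes of lipid breakdown, Asah1 and Psap rose by small amounts. Asah1, the acid ceramidase, was at 82.3, 80.1 and 82.1 CPM in wt retina and at 96.6, 90.3 and 88.4 in R6/1 retina. These ranges are apart, with a log2 fold change of 0.20 ± 0.06 (adjusted p = 0.0284). Psap, the precursor of the saposins that help hydrolases reach their lipids, went from 366 ± 37.1 CPM (SD, n = 3) to 419 ± 32.5, with ranges that overlap (0.23 ± 0.08, adjusted p = 0.0435). The palmitoyl thioesterase Ppt1 (0.12, adjusted p = 0.191) and the acid sphingomyelinase Smpd1 (0.08, adjusted p = 0.447) did not pass.

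Lgmn, the asparaginyl endopeptidase legumain, was at 132, 149 and 149 CPM in wt retina and at 172, 196 and 185 in R6/1 retina. All R6/1 pools lay above all wt pools (0.39 ± 0.07, adjusted p = 0.000393). Grn, which encodes progranulin, was at 16.7 ± 0.892 CPM in wt and 19.5 ± 0.073 in R6/1, with no overlap, and missed the threshold (0.26 ± 0.09, adjusted p = 0.0571), which it passed with limma-voom. The tripeptidyl peptidase Tpp1 had a log2 fold change of 0.08 ± 0.09 (adjusted p = 0.575).

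**Figure D2:**
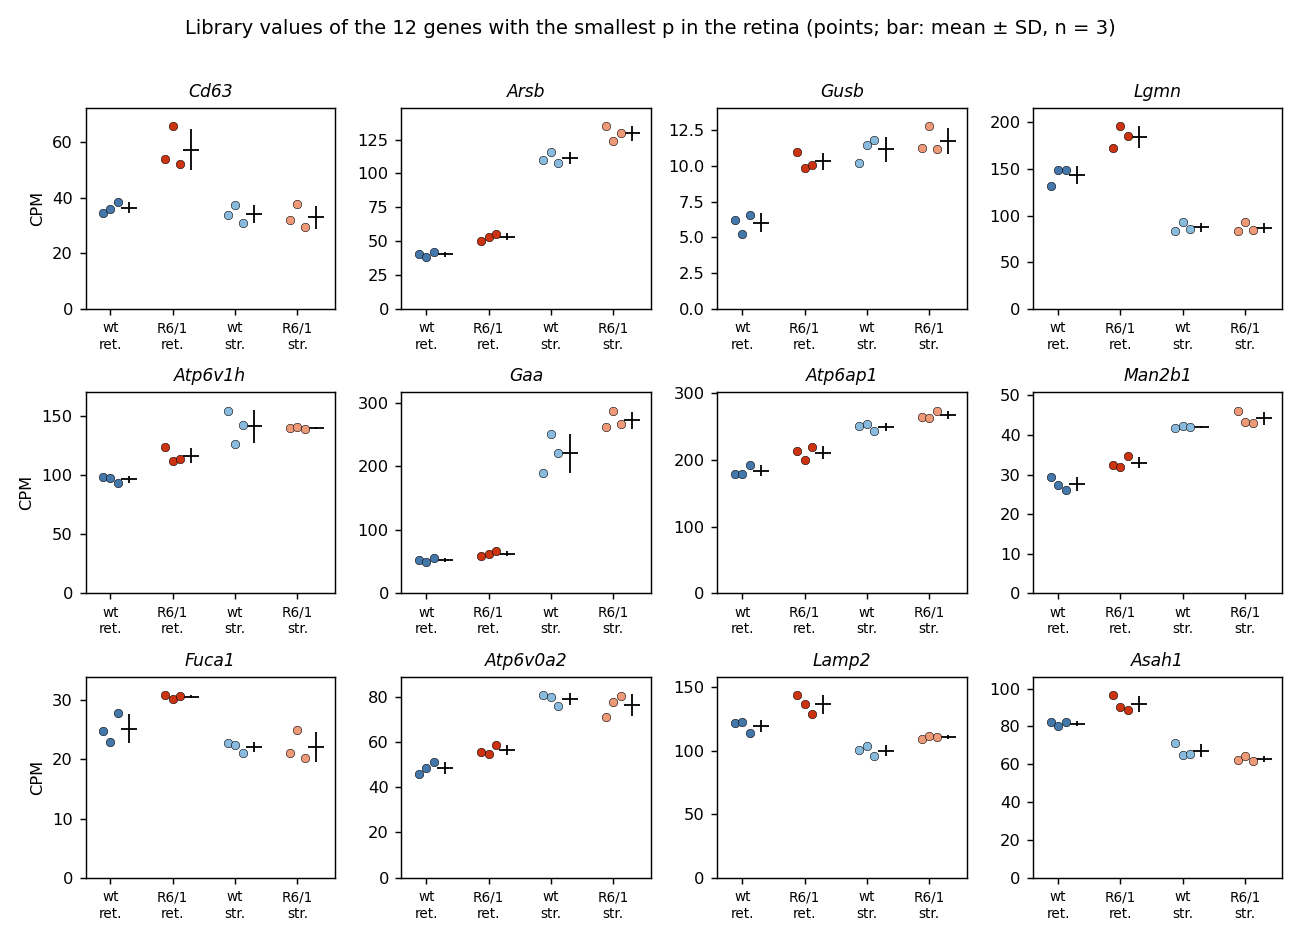
CPM (y axis, from 0) in each library of the 4 groups (x axis) for the 12 genes with the smallest p in the retina; points are pools and bars give the mean ± SD (n = 3). In all 12 the R6/1 retina pools lie above the wt retina pools, while striatal pools of Cd63, Gusb and Lgmn overlap between the genotypes.

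At the lysosomal membrane 3 of 8 genes rose. Cd63, a tetraspanin of late endosomes, lysosomes and exosomes, stood at 34.6, 36.1 and 38.5 CPM in wt retina and at 53.9, 65.8 and 52.2 in R6/1 retina. It had the smallest p of the set, with the groups far apart (0.68 ± 0.09, adjusted p = 2.91e-05). Lamp2, an abundant membrane glycoprotein needed for chaperone-mediated autophagy, was at 122, 123 and 114 CPM in wt and at 144, 137 and 129 in R6/1, which do not overlap (0.22 ± 0.06, adjusted p = 0.017). Scarb2, the receptor that takes glucocerebrosidase to the lysosome, went from 195 ± 8.28 to 214 ± 8.31 CPM (0.17 ± 0.06, adjusted p = 0.0489). Lamp1, the sister glycoprotein of Lamp2, had a log2 fold change of 0.13 ± 0.06 (adjusted p = 0.117), Cln3, the gene of juvenile Batten disease, 0.02 and the cation channel Mcoln1 0.00. Npc1 and Npc2, which pass cholesterol out of the lysosome, had −0.11 and −0.17 (adjusted p = 0.355 and 0.109). The transcription factor Tfeb itself was low, 3.17 ± 0.733 CPM in wt and 3.26 ± 0.562 in R6/1 (0.08 ± 0.22, adjusted p = 0.838).

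Of the 21 V-ATPase genes tested, 13 had an unadjusted p under 0.05 and 4 passed after adjustment. In V1, 1 of 10 genes tested rose: Atp6v1h, the regulatory H subunit, was at 98.3, 98.2 and 93.2 CPM in wt retina and at 124, 112 and 114 in R6/1 retina, with no overlap (0.30 ± 0.06, adjusted p = 0.00216). In V0, 1 of 8 rose and 1 fell. Atp6v0a2, an isoform of the large a subunit, was at 45.7, 48.4 and 51 CPM in wt and at 55.6, 54.5 and 58.7 in R6/1, again apart (0.25 ± 0.07, adjusted p = 0.0143). Atp6v0e2, an isoform of the small e subunit, fell from 270 ± 14.6 CPM to 221 ± 26.4 (−0.26 ± 0.08, adjusted p = 0.0312). Of the 3 accessory genes, Atp6ap1, a glycoprotein needed to assemble the pump, was at 179, 179 and 193 CPM in wt and at 213, 200 and 219 in R6/1, with all R6/1 pools higher (0.23 ± 0.06, adjusted p = 0.0113).

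Among subunits that did not pass, Atp6v1f (0.31 ± 0.11, adjusted p = 0.0561) had the largest positive estimate. The catalytic A subunit Atp6v1a (0.10), the B subunit Atp6v1b2 (0.16), and Atp6v1c1 (0.15), Atp6v1d (0.06), Atp6v1e1 (0.16) and Atp6v1g1 (0.15), had positive estimates with adjusted p between 0.0964 and 0.568, and Atp6v1g2, the neuronal G isoform, had −0.18 (adjusted p = 0.109). In V0, Atp6v0a1 (0.15), the proteolipids Atp6v0c (0.15) and Atp6v0b (0.07), Atp6v0d1 (0.04) and Atp6v0e (−0.16) had adjusted p between 0.082 and 0.684. The prorenin receptor Atp6ap2 had 0.01, and Atp6ap1l, on 12 to 29 counts per library, −0.88 ± 0.36 (adjusted p = 0.0916). Atp6v0a4 and Atp6v1b1, isoforms known from kidney, had at most 6 counts in a retinal library, too few to show a difference. Atp6v1c2 is listed at 0 in all 6 retinal libraries.

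The calls of Cd63, Gusb, Arsb, Lgmn and Atp6v1h held under every alternative run, and 6 genes (these and Gaa) passed at an adjusted p under 0.01. On GRCm38, Cd63 lies at chr10:128900989-128912822, Gusb at chr5:129989011-130003049, Arsb at chr13:93771630-93943016, Lgmn at chr12:102394084-102439813 and Atp6v1h at chr1:5070018-5162529. A single fit of all 12 libraries, which gave 9 higher and 1 lower, ended the calls of Gaa (adjusted p = 0.0844), Fuca1 (0.0548), Asah1 (0.0636), Psap (0.13) and Scarb2 (0.257), and limma-voom those of Psap (0.0575) and Scarb2 (0.0538), while it called Grn. Gaa kept its call with each library left out (highest adjusted p = 0.0486). The other calls of small size each rested on single pools, and 8 genes rose and 0 fell without wt retina pool 1. Without that pool Atp6ap1 (adjusted p = 0.067), Atp6v0a2 (0.085), Fuca1 (0.0634), Asah1 (0.0785), Atp6v0e2 (0.0825), Psap (0.145) and Scarb2 (0.129) lost their calls. Without wt retina pool 2, Fuca1 (0.0724), Asah1 (0.0805), Psap (0.195) and Scarb2 (0.17) did, and without wt retina pool 3, Man2b1 (0.072), Lamp2 (0.0883), Asah1 (0.0676), Atp6v0e2 (0.118) and Scarb2 (0.0619). Without R6/1 retina pool 1, Lamp2 (0.0546), Asah1 (0.0768) and Psap (0.0542) did, without pool 2, Atp6v0e2 (0.0876) and Scarb2 (0.0573), and without pool 3, Atp6ap1 (0.0565), Man2b1 (0.0617), Atp6v0a2 (0.0614), Psap (0.188) and Scarb2 (0.18). Other genes gained a call: Atp6v0a1 without R6/1 retina pool 1 (0.0365), Atp6v1b2 (0.037) and Atp6v1e1 (0.0349) without pool 2, and Atp6v1f without pool 3 (0.0104), and also with the edgeR filter filterByExpr. The shares of all genes called in the single fit and with a library left out are not given here. These counts are thus not set against a background.

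The scaling mattered for the count. With library totals in place of TMM, 29 of the genes rose and 0 fell, the median over the set was 0.25, and the median over all genes moved to 0.13, with 3886 genes higher and 1445 lower against 1588 and 2103 with TMM. Under that scaling Atp6v0e2 lost its call (−0.15, adjusted p = 0.151). Leaving rod and cone genes out of the TMM factors gave 14 and 1. Processed pseudogenes of Cd63 and Atp6v0c are annotated, and the share of reads the estimation could have moved between copies was not tested.

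Markers of other cells moved in the same libraries. The 14 microglia genes summed to 40.2 to 42.4 CPM in wt retina and to 63.6 to 76.3 in R6/1 retina, where 8 rose and 0 fell, among them Ctss (0.95), C1qa (1.25) and Tyrobp (1.64). DESeq2 called 5 of the 14, and of all genes edgeR called 9.58% higher and 12.7% lower. None of the 14 was at 0. The 18 rod and cone genes summed to 19786 to 27773 CPM in R6/1 retina, and all 18 fell. Of 10 genes of Müller glia and astrocytes 4 rose and 1 fell, and of 10 genes of pigment epithelium and choroid 0 passed by edgeR or DESeq2 and 1 had an unadjusted p under 0.05, with sums of 383 to 406 CPM in wt and 359 to 436 in R6/1. Of 5 tested oligodendrocyte genes 1 rose, of 8 endothelial and pericyte genes 1 rose and 1 fell, and of 7 choroid plexus genes 1 rose and 4 fell. Lens genes ranged from 2.29 to 597 CPM between R6/1 retina pools. The part of these cells in the changes of Cd63, Gusb and the other genes was not tested.

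Set by the letters in their promoters, 0 of the 6 genes with TCACGTGA were called in the R6/1 retina, beside 9.58% of all genes called higher and 12.7% lower, so 6 genes are too few to set a 0 apart. With library totals Atp6v1a passed. Their median log2 fold change was 0.01, and they ran from −0.19 (Gla) to 0.10 (Atp6v1a). Of the 8 genes with the core alone (Arsa, Atp6v0b, Gaa, Glb1, Lamp1, Lgmn, Naglu and Sgsh), Gaa and Lgmn rose, and the median was 0.16. Of the 27 tested genes with neither, 9 rose and 1 fell, with a median of 0.15, and Gusb, Cd63 and Arsb were among them. Of the 8 genes without a promoter in the table (Asah1, Atp6ap1l, Atp6v0a2, Atp6v1b2, Atp6v1c1, Atp6v1g1, Atp6v1h and Npc1), 3 rose. These counts are a description, and the difference between the classes was not tested.

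**Figure D3:**
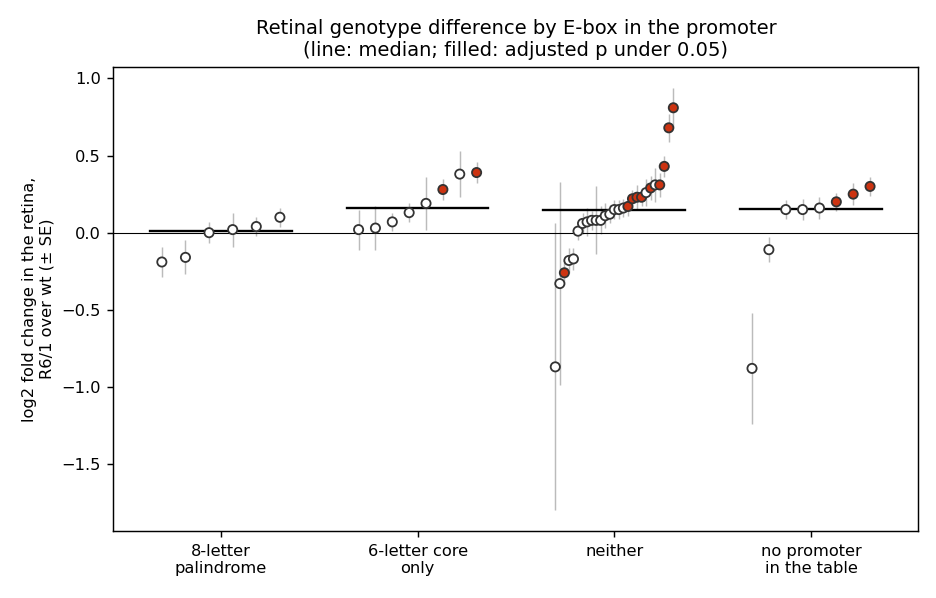
Log2 fold change of R6/1 over wt in the retina (y axis, ± SE) of the 49 genes tested, by the E-box found in the promoter (x axis); lines are medians and filled points passed an adjusted p under 0.05. The 6 genes with the longer palindrome lie between −0.19 and 0.10 and none is filled, and 9 of the 27 with neither palindrome are filled above 0. Of all genes 9.58% were called higher, so 6 genes are too few to set a 0 apart.

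In the striatum the same genes did not pass the test: 0 of 49 were called in either direction by edgeR, DESeq2 and limma-voom alike, with 8 at an unadjusted p under 0.05 by edgeR, 7 by DESeq2 and 9 by limma-voom. By edgeR few genes passed there at all, 0.132% higher and 1.32% lower of the 16728 tested, so its count of 0 is near the background. The shares of all genes called by DESeq2 and limma-voom are not given here. Their counts of 0 are thus not set against a background. The median of the set was 0.03. Grn was at 32.8, 35.4 and 33.6 CPM in wt striatum and at 42.5, 41.5 and 38.4 in R6/1 striatum, with no overlap (0.26 ± 0.07, 95% interval 0.10 to 0.43, adjusted p = 0.105). Arsb was at 110, 116 and 108 CPM in wt and at 135, 124 and 130 in R6/1, also apart (0.22 ± 0.07, adjusted p = 0.119). Gaa was at 190, 251 and 221 CPM in wt and at 262, 288 and 267 in R6/1 (0.30 ± 0.10, adjusted p = 0.148). In Gaa the R6/1 pools all exceeded the wt pools, among which pool 2 was highest. Atp6v1c2, an isoform of the C subunit, was at 2.75, 1.83 and 2.64 CPM in wt and at 1.05, 1.16 and 1.65 in R6/1, on 17 to 46 counts per library (−0.90 ± 0.28, adjusted p = 0.132).

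Wt and R6/1 striatum libraries of the same number deviated together, and with the number as a block 2 genes rose and 1 fell: Gaa (0.31, adjusted p = 0.0148), Grn (0.26, adjusted p = 0.0447) and Atp6v1g2 (−0.23, adjusted p = 0.0342). The same fit called 2.83% of all genes higher and 7.11% lower. One pool set the count without the block too: leaving out wt striatum pool 2, Gaa (0.41, adjusted p = 0.0168), Arsb (0.25, 0.0427) and Grn (0.30, 0.0467) rose, and Atp6v1c2 (−1.06, 0.046) and Atp6v1g2 (0.0176) fell. The share of all genes called in that fit is not given here, so these calls are not set against a background. Grn and Arsb also passed in a single fit of all 12 libraries (adjusted p = 0.0338 and 0.0397). Arsb passed with library totals as well (0.33, 0.0463), where the median of all genes stood at 0.12. The shares of all genes called in these fits are not given here either. Over the 49 genes the striatal log2 fold changes ran from −0.90 to 0.97, the latter for Atp6v0a4 on at most 6 counts. Microglia genes summed to 458 to 490 CPM in wt striatum and to 429 to 456 in R6/1 striatum, with 0 of 14 called by edgeR or DESeq2 and 4 at an unadjusted p under 0.05 by edgeR, and medium spiny neuron genes fell to 2046 to 3635 CPM, with 4 of 15 called lower by edgeR and 13 of 15 called by DESeq2. Choroid plexus genes ranged from 26.3 to 156 CPM between R6/1 striatum pools.

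The test of the difference between the tissues' genotype effects, which asks where R6/1 mice departed from wt more in one tissue than in the other, called 3 genes, all with the larger effect in the retina: Cd63, Gusb and Lgmn. Of the 15731 genes tested, 3.38% were called in that direction and 4.86% in the other, beside 3 of 48 (6.25%) and 0 here; 12 of the 48 had an unadjusted p under 0.05, and DESeq2 called 4. Cd63 was at 33.8, 37.4 and 30.9 CPM in wt striatum and at 32, 37.6 and 29.5 in R6/1 striatum, which overlap almost whole. Its striatal log2 fold change was −0.04 (95% interval −0.28 to 0.20), and the difference of effects was 0.69 ± 0.15 (adjusted p = 0.0128). Gusb was at 10.2, 11.5 and 11.8 CPM in wt striatum and at 11.3, 12.8 and 11.2 in R6/1 striatum, also overlapping. There its log2 fold change was 0.08 (95% interval −0.17 to 0.33), with a difference of 0.69 ± 0.17 (adjusted p = 0.0199). Lgmn was at 83.5, 93.1 and 85.3 CPM in wt striatum and at 83.9, 92.8 and 84.1 in R6/1 striatum, with nearly equal means. Its striatal log2 fold change was −0.01 (95% interval −0.17 to 0.15), and the difference was 0.37 ± 0.10 (adjusted p = 0.0415).

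Lgmn passed this test by little: leaving out a library ended its call for 10 of the 12 libraries, all but R6/1 retina pool 1 and R6/1 striatum pool 2, with adjusted p between 0.0539 and 0.114. Gusb lost its call without wt retina pool 2 (0.61, adjusted p = 0.0508), and Cd63 kept its call at 0.05 in every fit, with adjusted p between 0.00444 and 0.0411 with each library left out. Next in order was Asah1, at 71.1, 64.8 and 65.4 CPM in wt striatum and 62.2, 64.3 and 61.6 in R6/1 striatum, where the estimate was −0.10 against 0.20 in the retina. That difference (0.27 ± 0.08) had an adjusted p of 0.0617 and passed with DESeq2 (0.0424) and without wt striatum pool 2 (0.0399). For Gaa and Grn, whose estimates were alike in both tissues, the differences were −0.05 ± 0.13 and −0.04 ± 0.10, and for Arsb 0.18 ± 0.09 (adjusted p = 0.237).

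Between the tissues of wt mice most of the set differed. Of 49 genes tested 13 were higher in the retina and 27 in the striatum, beside 37.8% and 38.5% of all genes, and the median log2 difference of retina minus striatum was −0.51, against −0.00 over all genes. In R6/1 mice the counts were again 13 and 27, beside 36.3% and 36.9% of all genes, with a median of −0.31. The comparisons share no library. All 40 genes called in wt had the same sign in R6/1, and 36 of them were called in the same direction there. Atp6v0e2, Sgsh, Gusb and Tfeb passed in wt alone, and Atp6ap2, Npc1, Cd63 and Fuca1 in R6/1 alone. Only for Gusb and Cd63 among these 8 did the difference of genotype effects itself pass.

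By role, 6 of the 9 glycosidases and 2 of the 3 sulfatases were higher in the wt striatum and 1 of each was higher in the wt retina, while 3 of the 4 lipid genes and 2 of the 3 peptidase and granulin genes were higher in the retina. Values in parentheses are now log2 differences of wt retina minus wt striatum with their SE. Psap was at 361, 331 and 405 CPM in wt retina and at 1066, 967 and 1069 in wt striatum (−1.50 ± 0.09, adjusted p = 2.72e-08). Gaa, with the library values given above, had a mean of 52.4 ± 3.3 CPM in wt retina and 220 ± 30.3 in wt striatum (−2.07 ± 0.10, adjusted p = 9.17e-09). Arsb had 40.2 ± 1.96 and 111 ± 4.08 CPM (−1.47 ± 0.07, adjusted p = 3.26e-09). Glb1 was at 7.36, 5.63 and 6.34 CPM in wt retina and at 14.9, 14.6 and 15.8 in wt striatum, with no pool in between (−1.23 ± 0.13, adjusted p = 3.23e-06). Arsa (−1.13) and Grn (−1.03) also passed a log2 difference of 1. On the retinal side Tpp1 and Gla passed a log2 difference of 1. Tpp1 was at 148, 146 and 185 CPM in wt retina and at 69.9, 68 and 70.6 in wt striatum (1.20 ± 0.09, adjusted p = 3.02e-07), and Gla at 25.6 ± 2.98 and 11.7 ± 0.388 CPM (1.12 ± 0.11, adjusted p = 1.55e-06).

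Smaller retinal excesses were called for Cln3 (0.84), Sgsh (0.72), Lgmn (0.71), Mcoln1 (0.40), Asah1 (0.28), Smpd1 (0.28), Lamp2 (0.25) and Ppt1 (0.22). Striatal excesses were called for Gusb (−0.88), Lamp1 (−0.74), Galc (−0.72), Tfeb (−0.68), Man2b1 (−0.61), Npc2 (−0.59) and Hexa (−0.57). Naglu, Scarb2, Npc1, Cd63 and Fuca1 did not pass in wt. Of the 21 V-ATPase genes tested in wt, 14 were higher in the striatum and 3 in the retina, namely Atp6v1g1 (0.72), Atp6v0e2 (0.41) and Atp6v0b (0.22). The widest of these gaps were in Atp6ap1l, at 1.94, 1.02 and 1.4 CPM in wt retina against 9.92, 7.79 and 7.31 in wt striatum (−2.51 ± 0.23, adjusted p = 1.31e-06), and in Atp6v1g2, at 67.5, 67.5 and 77.1 against 275, 236 and 283 (−1.90 ± 0.09, adjusted p = 3.28e-09). The pools of the tissues stand far apart in both. Atp6v1d stood at 105 ± 7.33 CPM in wt retina and 210 ± 10.6 in wt striatum, and the other called subunits had log2 differences between −0.71 (Atp6v0a2) and −0.31 (Atp6v0e). Atp6v1c2 passed too, but it is listed at 0 in the retina, so no fold is given.

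**Figure D4:**
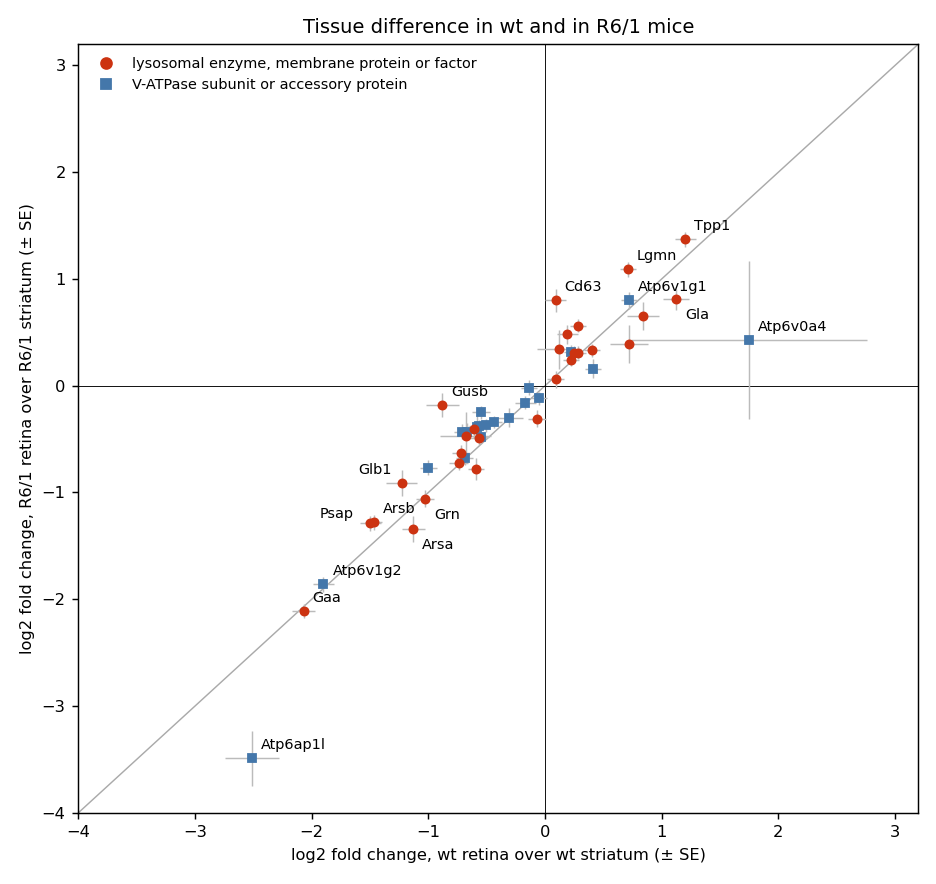
Log2 difference of retina minus striatum in wt mice (x axis, ± SE) and in R6/1 mice (y axis, ± SE), a point per gene, with circles for lysosomal genes and squares for V-ATPase genes; the diagonal marks equal differences. Most points lie near the diagonal and below 0, and Cd63 (0.09 in wt, 0.80 in R6/1) and Gusb (−0.88 and −0.18) lie above it; Atp6v1c2 and Atp6v1b1, listed at 0 in a tissue, are left out.

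Per kilobase of exon, which lets genes be compared, the highest mean levels of the set in wt retina were those of Psap (133 CPM per kb), Atp6v0e2 (113), Atp6v1g1 (90.5) and Atp6v1b2 (90.4), the last pair within the spread between pools. In wt striatum Psap was again highest (377 CPM per kb), before Lamp1 (118), Atp6v0c (110) and Atp6v1g2 (105). At the low end were Tfeb, with 0.559 and 0.886 CPM per kb in the wt tissues, and the isoforms Atp6v0a4 and Atp6v1b1, with 0.0548 and 0.0392 CPM per kb in wt retina.

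Isoforms of the same V-ATPase subunit were set against each other on that scale. The shares are of RNA and not of protein, and they depend on the annotated exon length of each gene. For the G subunit, part of the stalk that links V1 to V0, the main isoform by RNA differed between tissues. Atp6v1g1 made 76.6%, 77.4% and 74.8% of its RNA in wt retina and 33.5%, 37.9% and 31.5% in wt striatum, with Atp6v1g2 as the rest. In R6/1 mice the Atp6v1g1 share was 83%, 79.3% and 77.8% in retina and 39.5%, 40% and 37.3% in striatum. Thus the R6/1 retina pools all lay above the wt retina pools. In the striatum all but the last R6/1 pool did so, and that pool was below the highest wt pool. Neither Atp6v1g1 nor Atp6v1g2 passed on its own in the retina or, without the block, in the striatum. For the a subunit, Atp6v0a1 held 82% to 86.1% in every library and Atp6v0a2 nearly all the rest, among the a isoforms of the set. Tcirg1, an a isoform under another symbol, was not counted in these shares. Atp6v0e2 held 93.9% to 97% of the RNA of the e subunit, so the gene that fell in the R6/1 retina is its main isoform by RNA. Atp6v1b2 made nearly all the RNA of the B subunit. Atp6v1c2 made 2.51% to 3.16% of the RNA of the C subunit in wt striatum and 1.38% to 2.09% in R6/1 striatum, where the groups do not overlap.

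**Figure D5:**
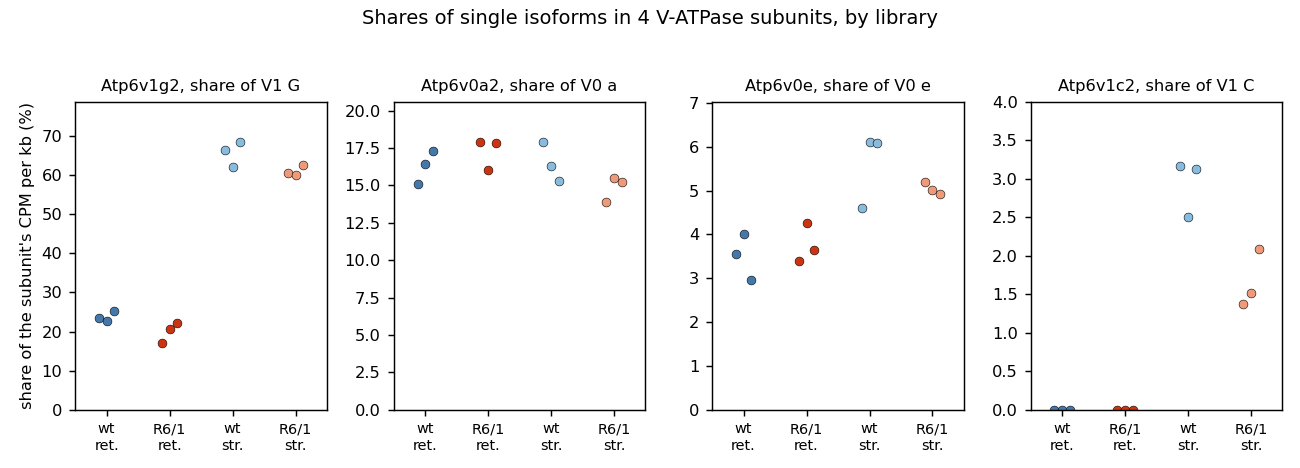
Share of a subunit's CPM per kb (y axis, %) held by Atp6v1g2, Atp6v0a2, Atp6v0e and Atp6v1c2 in each library of the 4 groups (x axis). Only isoforms of the set are counted, so the a subunit lacks Tcirg1. Atp6v1g2 holds 17% to 25.2% in retina and 60% to 68.5% in striatum, while the share of Atp6v0a2 stays between 13.9% and 17.9%.

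Other lysosomal genes, outside the set, were counted in the same way in lists of related function. In the R6/1 retina 9.58% of all genes rose and 12.7% fell, and counts in lists this short are a description beside those shares. Of 20 further hydrolases and activators 5 rose and 0 fell, among them the β-mannosidase Manba (0.80 ± 0.15, adjusted p = 0.000901) and Galns, which acts on keratan sulfate (0.66 ± 0.16, adjusted p = 0.00831), with a median of 0.12. Of 20 further membrane proteins and transporters 4 rose and 3 fell, with Lamp5, a neuronal member of the Lamp family, falling (−0.85 ± 0.07, adjusted p = 1.6e-07), and Laptm5, a protein of immune cells (1.01 ± 0.22, adjusted p = 0.00352), and Laptm4a (0.30 ± 0.07, adjusted p = 0.0045) rising. In the sorting of hydrolases 1 of 14 rose, the mannose 6-phosphate receptor M6pr (0.24 ± 0.06, adjusted p = 0.00986). Among 12 V-ATPase subunit and partner genes under other symbols Tmem9 (0.21) rose and Rogdi (−0.31) fell. Of 16 tested genes of the TFEB family and nutrient sensing Lamtor5 (0.25) rose. In the striatum 0 of the 82 genes in these 5 lists passed by edgeR, with 13 at an unadjusted p under 0.05, 4 called by DESeq2 and 0 by limma-voom. There edgeR called 0.132% of all genes higher and 1.32% lower, so a 0 is near that share. By edgeR the smallest adjusted p were those of Rragd (−0.58, 0.0533), Dmxl1 (0.34, 0.068) and Abcb9 (−0.48, 0.0746).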

How the data were processed

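RNA of 12 libraries was sequenced. Per the labels, the authors used a stranded mRNA kit, CASAVA, Trimmomatic and Salmon on GRCm38/mm10; no versions are stated. The values they deposited are estimated counts per gene, rounded to whole numbers and not normalized. A gene is either at 0 in all libraries of a tissue (997 genes in retina, 851 in striatum), here "listed at 0", or has at least 11 counts there. Coordinates and exon lengths came from GENCODE M21.

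Each comparison was fitted over all genes with the quasi-likelihood F-test of edgeR 4.0.16 in R 4.3.3 (robust, TMM, at least 10 counts over the libraries compared), and Benjamini-Hochberg adjusted p under 0.05 was called. CPM use TMM factors over all 12 libraries, so ratios of means differ slightly from fitted folds. The test was tried on simulated counts. Alternatives were DESeq2 1.42.0, limma-voom of limma 3.58.1, other scalings, filters and sample sets, a replicate block, and an adjusted p under 0.01. Any gene of the set could be named; values by library were given for the 12 smallest p in retina, 4 in striatum, 4 for the difference and the 8 largest called wt tissue differences, and up to 3 genes by p from each other pathway list and tissue. Ctss, C1qa and Tyrobp were named with their values known. The set, lists and tests were chosen with earlier results of these data known. Python 3.11.15 made the summaries and figures.

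Same-number wt and R6/1 striatum libraries deviated together from their group means (r = 0.275, 0.332 and 0.254 over 10470 genes), above the limit of 0.1 set for pairing, although wt library 1 also did so with R6/1 library 3 (0.278). Retinal libraries did not (0.138, −0.123 and 0.0168). The labels do not say what a number marks.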

Additional observations from a re-analysis of the deposited data

Results flagged for a closer look

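Cd63, Gusb and Lgmn drew attention because the genotype effect differed between retina and striatum in a test of that difference, edgeR's interaction term over the libraries of both tissues. The difference, retina minus striatum on the log2 scale, was 0.69 for Cd63 (adjusted p = 0.0128), 0.69 for Gusb (adjusted p = 0.0199) and 0.37 for Lgmn (adjusted p = 0.0415). Lgmn lost this call in 10 of the fits that left out a library, and Gusb lost it without wt retina pool 2. The calls are 6.25% of the set, beside 3.38% of all genes called in that direction and 4.86% in the other. In the retina all 3 R6/1 pools lay above all 3 wt pools in each gene, and in the striatum the groups overlapped in each. These values entered the test that picked the genes, so they are not separate support for it. Microglia markers summed to a higher level in the same R6/1 retina pools (63.6 to 76.3 CPM against 40.2 to 42.4) and not in the R6/1 striatum pools (429 to 456 against 458 to 490), and the part of this in the difference was not tested.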

How the results depend on the processing

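In the retina 15 genes of the set were called. Library totals in place of TMM gave 29, an adjusted p under 0.01 gave 6, and leaving out a library gave 8 to 15, with 8 without wt retina replicate 1. In the striatum, where 0 were called, library totals gave 1, a single fit of all 12 libraries gave 2, and leaving out a library gave 0 to 5, with 5 without wt striatum replicate 2. The replicate block gave 3 in the striatum. Retina and striatum came from the same mice, but no source ties a number to the same pool. The replicate block gave 16 in the retina, where it added Atp6v1f, 3 for the difference of genotype effects and 40 for the tissues in wt and in R6/1, and it changed no call in the last 3. For the difference, 3 were called; leaving out a library gave 1 to 4, and an adjusted p under 0.01 gave 0. The tissue comparisons gave 37 to 42 in every alternative. Search words shorter than the 8-letter palindrome raised the promoter count from 6 to 14 for the 6-letter core and 14 for the 7-letter word, the latter added after the data were seen. No called gene changed direction under an alternative. Estimates near 0 did: positive ones numbered 40 in the retina, 41 with library totals and 36 in the single fit, and 29 in the striatum against 43 with library totals. A group reduced to 2 libraries borrows its spread from the others in the fit. The causes of these changes were not tested. For the single fit and the fits with a library left out, the shares of all genes called are not given here. Pools of 3 per group limit what small changes can be called, and genes under about 30 counts per library, such as Atp6v0a4, Atp6v1b1 and Atp6ap1l in the retina, could not show modest ones.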
